A study of Mus musculus with 2 samples.

Results

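*Malat1*, *Neat1*, *Kcnq1ot1*, *Lncpint* and *Gm26917* are long noncoding RNAs (lncRNAs) whose known or predicted place is the nucleus. These 5 genes, of 32285 genes in the count tables, were chosen by name, after earlier results of the same tables had shown that their share of the RNA moved with the depth and the mitochondrial share of single alveolar macrophage (AM) transcriptomes. All 5 were matched to Ensembl identifiers of both tables by symbol, and all 5 passed the minimum of 10 unique molecular identifiers (UMIs, each counted as 1 captured RNA molecule) in each library. AMs, the resident macrophages of the airspaces, were sorted by flow cytometry from the digested lungs of C57BL/6 mice at postnatal week 10. The study defines AMs as autofluorescent CD45+ cells that are F4/80+, Siglec-F+, CD11c+ and CD11b-, and the sources used here do not spell out which of these markers gated the sequenced cells. The control library came from orthotopic vehicle-control mice and the tumor library from mice whose left lung had been implanted with cells of the mouse line Lewis lung carcinoma (LLC). Droplet libraries were made with 10x Genomics 3′ chemistry, 1 library per condition, and the methods describe the experimental and the control mice as bred separately. How many mice were pooled in a library was not given in the sources used here. A difference between the libraries therefore cannot be told apart from a difference between preparations, breeding groups or single animals, and no test was run.

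Most mRNAs leave the nucleus after splicing, whereas a group of abundant lncRNAs stays there. *Malat1* gathers in nuclear speckles, the stores of splicing factors, and its primary transcript is cut by RNase P downstream of an encoded A-rich tract, which frees a small tRNA-like RNA. *Neat1* builds paraspeckles with RNA-binding proteins such as *Nono* and *Sfpq*, and only its long form carries them, while its short form ends at an early polyadenylation site. *Kcnq1ot1* is read antisense to *Kcnq1* from the paternal allele and silences the neighbouring imprinted genes. *Lncpint* is induced by p53 and has been tied to Polycomb repression, and *Gm26917* is a predicted gene beside sequence annotated as ribosomal RNA. In droplet data, few UMIs and a high share of mitochondrial UMIs are the common marks of a poorly captured or damaged cell.

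The 3′ chemistry primes on stretches of A, so the ends of these transcripts and the A runs inside them bear on which molecules could be counted. In the GENCODE vM21 annotation of GRCm38, *Malat1* lies on the minus strand at chr19:5795690-5802672 (6983 bases), and *Neat1* lies on the same strand at chr19:5824708-5845478 (20771 bases), 22035 bases away. *Kcnq1ot1* is a single exon of 93092 bases on the minus strand at chr7:143203458-143296549, inside *Kcnq1* on the other strand. *Lncpint* spans chr6:31082565-31220488 on the minus strand with 16 annotated transcripts, the longest of them 1676 bases once spliced, and overlaps 5 other genes. *Gm26917* is annotated at chr17:39843013-39846341 on the plus strand (3329 bases), and ends 11 bases before a gene annotated as rRNA, 616 bases before *Gm42418* and 771 bases before *AY036118*. The last 60 bases of the main transcripts are given 5′ to 3′ on the transcript strand, with the polyadenylation signals AATAAA and ATTAAA in capitals (coordinates in GRCm38).
Malat1, chr19:5795690-5795749, minus strand: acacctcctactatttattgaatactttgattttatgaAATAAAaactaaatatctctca
Neat1 short form, chr19:5842307-5842366, minus strand: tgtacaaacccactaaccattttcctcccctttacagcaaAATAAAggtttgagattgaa
Neat1 long form, chr19:5824708-5824767, minus strand: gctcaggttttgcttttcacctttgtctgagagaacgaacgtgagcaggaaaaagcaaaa
Kcnq1ot1, chr7:143203458-143203517, minus strand: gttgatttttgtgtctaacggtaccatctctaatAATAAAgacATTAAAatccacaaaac
Lncpint, chr6:31165523-31165582, minus strand: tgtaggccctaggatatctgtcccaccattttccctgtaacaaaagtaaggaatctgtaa
Gm26917, chr17:39846282-39846341, plus strand: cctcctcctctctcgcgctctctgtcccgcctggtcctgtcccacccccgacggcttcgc

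*Malat1*, the short form of *Neat1* and *Kcnq1ot1* ended with a signal, and the long form of *Neat1*, the longest *Lncpint* transcript and *Gm26917* did not. One of the 2 signals was found in the last 60 bases of 34.5% of 141515 annotated transcripts on the sense strand (AATAAA in 27.2%, ATTAAA in 9.10%), and of the 16 *Lncpint* transcripts 1 had it. A run of at least 8 A was present in 13.8% of 141767 transcripts. *Malat1* held 1 such run, 298 bases before its annotated end, and *Kcnq1ot1* held 30, or 3.22 per 10 kb. None was found in the main transcripts of *Neat1*, *Lncpint* or *Gm26917*. The *Malat1* run and the longest *Kcnq1ot1* run, of 41 A, are shown with 20 bases on each side and the run in capitals.
Malat1, chr19:5795968-5796019, minus strand: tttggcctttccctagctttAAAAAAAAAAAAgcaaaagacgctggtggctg
Kcnq1ot1, chr7:143226925-143227005, minus strand: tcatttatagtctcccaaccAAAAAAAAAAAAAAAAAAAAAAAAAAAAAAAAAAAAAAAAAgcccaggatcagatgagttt

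Whether a UMI came from a polyadenylated end or from an inner run could not be seen in the count tables, which hold 1 value per gene. The short and long forms of *Neat1* could likewise not be separated. Stretches of at least 91 bases at 98% identity were shared by *Malat1* with *Spc24* (151 bases) and by *Neat1* with 3 small RNA genes annotated within it, so counts of these genes could have been split, and none was found for *Kcnq1ot1*, *Lncpint* or *Gm26917*.

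In each library, barcodes with at least 500 detected genes were kept. This left 7162 of 8485 control barcodes with 66811674 UMIs and 8430 of 9175 tumor barcodes with 70165088 UMIs. The control library was the deeper, since the median barcode held 9547 UMIs there and 7820.5 UMIs in tumor (3029 and 2709 genes), and more of its barcodes had at least 10% mitochondrial UMIs (13.6% against 9.06%). The libraries shared 19 of the kept barcode sequences. Levels are in CPM, a share of all UMIs of the same barcodes on a scale where 10000 CPM is 1%, after summing over barcodes. Intervals in parentheses are exact 95% intervals (Poisson for CPM, conditional binomial for ratios, binomial for shares), and they cover counting error only. UMIs of a 3′ library are not divided by transcript length. A proportion between different genes is therefore a proportion of UMIs, and is not read as a proportion of their transcripts in the cell.

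Together the 5 lncRNAs took 1.29% of all UMIs in the control library and 1.12% in the tumor library, and *Malat1* made up 85.8% and 87.1% of that. *Malat1* was at 11106 CPM (11081 to 11131) in control and 9761 CPM (9738 to 9785) in tumor, a log2 ratio of tumor over control of −0.19. *Neat1* was at 1083 CPM (1075 to 1091) in control and 867 CPM (860 to 874) in tumor, a log2 ratio of −0.32. Both speckle and paraspeckle RNAs thus had a somewhat lower share in the tumor library, outside the counting intervals and short of 1.5-fold.

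*Kcnq1ot1*, the silencer of the *Kcnq1* imprinted domain, differed most. It was at 437 CPM (432 to 442) in control and at 245 CPM (242 to 249) in tumor, a log2 ratio of −0.83 (−0.86 to −0.81), or 1.78-fold higher in control. A *Kcnq1ot1* UMI was seen in 82.2% of control and 66.2% of tumor barcodes. Since the control library was deeper, each barcode was also thinned to 2000 UMIs, which left out 832 control and 797 tumor barcodes, and the shares were then 49.1% (47.9 to 50.3) and 31.2% (30.2 to 32.3). *Lncpint*, the p53-linked lncRNA, was at 71.2 CPM (69.2 to 73.3) in control and 54.0 CPM (52.3 to 55.8) in tumor, a log2 ratio of −0.40, and 14.1% of control against 10.4% of tumor barcodes held a UMI after thinning. *Neat1* was seen in 74.9% and 67.2% of thinned barcodes. *Malat1* was seen in 99.3% and 99.4%, near the ceiling, so at this depth the share of barcodes could not show a difference for *Malat1*. Its mean was 25.9 UMIs per thinned barcode in control and 21.1 in tumor.

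*Gm26917*, the predicted gene beside ribosomal sequence, was the only one of the 5 with a higher summed level in tumor, 280 CPM (276 to 284) against 248 CPM (244 to 251), a log2 ratio of 0.18 that turned to −0.05 when each barcode's own CPM was averaged instead. In barcodes thinned to 2000 UMIs it was seen in 39.0% of tumor and 33.9% of control, whereas in barcodes thinned to 1000 UMIs the shares were 26.9% (26.0 to 27.9) and 26.5% (25.5 to 27.6), with overlapping intervals. The 1% of barcodes richest in *Gm26917* held 9.94% of its UMIs in control and 8.32% in tumor, against 3.55% and 4.54% for *Malat1*. The other RNAs lay between or near these, at 8.22% and 8.92% for *Lncpint*, 6.46% and 8.31% for *Kcnq1ot1* and 5.77% and 6.59% for *Neat1*.

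Of the 5 genes, *Kcnq1ot1* alone passed 1.5-fold between the libraries, while 20.2% of the 13026 genes tested did so in either direction, 8.07% being higher and 12.2% lower in tumor. Since the rule that chose the genes used these shares, nothing is read from that count. The median log2 ratio was −0.32 over the 5 genes and −0.07 over all genes tested. Among 1211 annotated lncRNAs, 31.6% were at least 1.5-fold lower and 6.69% higher in tumor, with a median of −0.33. Among 11787 protein-coding genes, 10.2% were lower and 8.20% higher, with a median of −0.06.

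The proportions of the 5 RNAs to one another were also taken, because a ratio of 2 RNAs within the same barcodes does not contain the total count. Per 100 *Malat1* UMIs, the control library held 9.75 *Neat1*, 3.94 *Kcnq1ot1*, 0.641 *Lncpint* and 2.23 *Gm26917* UMIs, and the tumor library 8.88, 2.51, 0.553 and 2.86. *Kcnq1ot1* was thus lower in tumor also relative to *Malat1*, and *Gm26917* was higher.

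Partners, targets and other RNAs of the nucleus were read against the same shares over all genes, 8.07% higher and 12.2% lower in tumor. Of 12 other nuclear lncRNAs measured, 2 were higher in tumor, *Mir17hg* and *Hotairm1*, and 2 were lower, *Pvt1* (14.8 against 9.09 CPM) and *Snhg11*, with a median of −0.21. None of the 16 paraspeckle proteins and none of the 16 speckle proteins passed 1.5-fold, with medians of −0.08 and −0.28. The paraspeckle list ran from *Srsf10* (105 CPM in control, 79.6 in tumor, log2 −0.41) to *Tardbp* (78.6 and 89.4 CPM, 0.19). Of the *Kcnq1* imprinted domain, where *Kcnq1ot1* acts, 7 of 12 genes were measured and none passed 1.5-fold, with a median of −0.16. *Cd81*, a tetraspanin of that domain, was at 254 CPM in control and 197 in tumor, *Tssc4* at 29.8 and 21.2 CPM and *Slc22a18* at 12.3 and 8.84 CPM. *Tspan32* was higher in tumor, at 44.5 and 51.3 CPM (log2 0.21). *Osbpl5* was also higher, at 0.314 and 0.428 CPM, but on 21 and 30 UMIs, with an interval of the log2 ratio that included 0 (−0.41 to 1.32). *Nap1l4* (56.0 and 53.5 CPM, log2 −0.07) and *Cdkn1c* (0.509 and 0.456 CPM, log2 −0.16) were slightly lower. Of 17 p53 targets and Polycomb partners, 2 were higher and 2 lower, with a median of −0.15. The growth arrest genes *Gadd45a* (11.5 and 34.5 CPM) and *Btg2* (248 and 445 CPM) were higher in tumor, and the Polycomb methyltransferase gene *Ezh2* (31.0 and 17.2 CPM) and *Phlda3* (70.4 and 41.9 CPM) were lower. *Gm42418* and *AY036118*, the ribosomal neighbours of *Gm26917*, were at 35148 and 1407 CPM in control and at 33230 and 1040 CPM in tumor, so neither passed 1.5-fold. Of 16 immediate early and stress genes, listed for their known response to cell isolation, 8 were higher in tumor, against 8.07% of all genes. Their median was 0.61. The largest ratios were those of *Ier3* (114 and 367 CPM) and *Hspa1b* (106 and 311 CPM). *Junb* was also among the 8, and the paper names it as the transcription factor of highest z score among genes raised in its tumor-enriched AM clusters. Whether isolation or the tumor raised the listed genes was not tested. Whether these genes bear on the lncRNA levels was not tested either.

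Since *Kcnq1ot1* was the one past 1.5-fold, its promoter is shown, 250 bases before to 50 after its start, from RefSeq on GRCm38.p6. Capitals mark the motif CCAAT, the letters of the box bound by the factor NF-Y.
Kcnq1ot1 promoter, chr7:143296498-143296797, minus strand: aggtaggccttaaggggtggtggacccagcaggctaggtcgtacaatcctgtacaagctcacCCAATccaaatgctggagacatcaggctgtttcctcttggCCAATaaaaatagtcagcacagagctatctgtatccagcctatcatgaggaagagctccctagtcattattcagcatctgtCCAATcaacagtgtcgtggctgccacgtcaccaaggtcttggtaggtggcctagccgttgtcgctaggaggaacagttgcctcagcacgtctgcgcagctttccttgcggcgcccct

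The *Kcnq1ot1* promoter held 3 CCAAT on its own strand, and the promoters of *Malat1* and *Lncpint* held 0 on either strand. Of 32851 promoters of this length, 37.4% held at least 1 CCAAT on either strand and 3.37% held at least 3. TATAAA and GGGCGG, searched in the same way, were in none of the 3 promoters and in 13.6% and 35.7% of all promoters. Promoters of *Neat1* and *Gm26917* were not shown. A match is a match of letters, and binding was not measured.

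The share of every one of the 5 RNAs was highest in shallow barcodes. *Malat1* in control barcodes was at 35949 CPM under 1000 UMIs, 50155 CPM from 1000 to 2000, 28084 CPM from 2000 to 5000, 10280 CPM from 5000 to 10000, 9400 CPM from 10000 to 20000 and 8039 CPM above that. In tumor barcodes the same bins held 54857, 53774, 16949, 8666, 8608 and 6673 CPM. The level thus changed little above 5000 UMIs and several-fold below that depth, and the step came at a lower depth in tumor than in control.

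**Figure D1:**
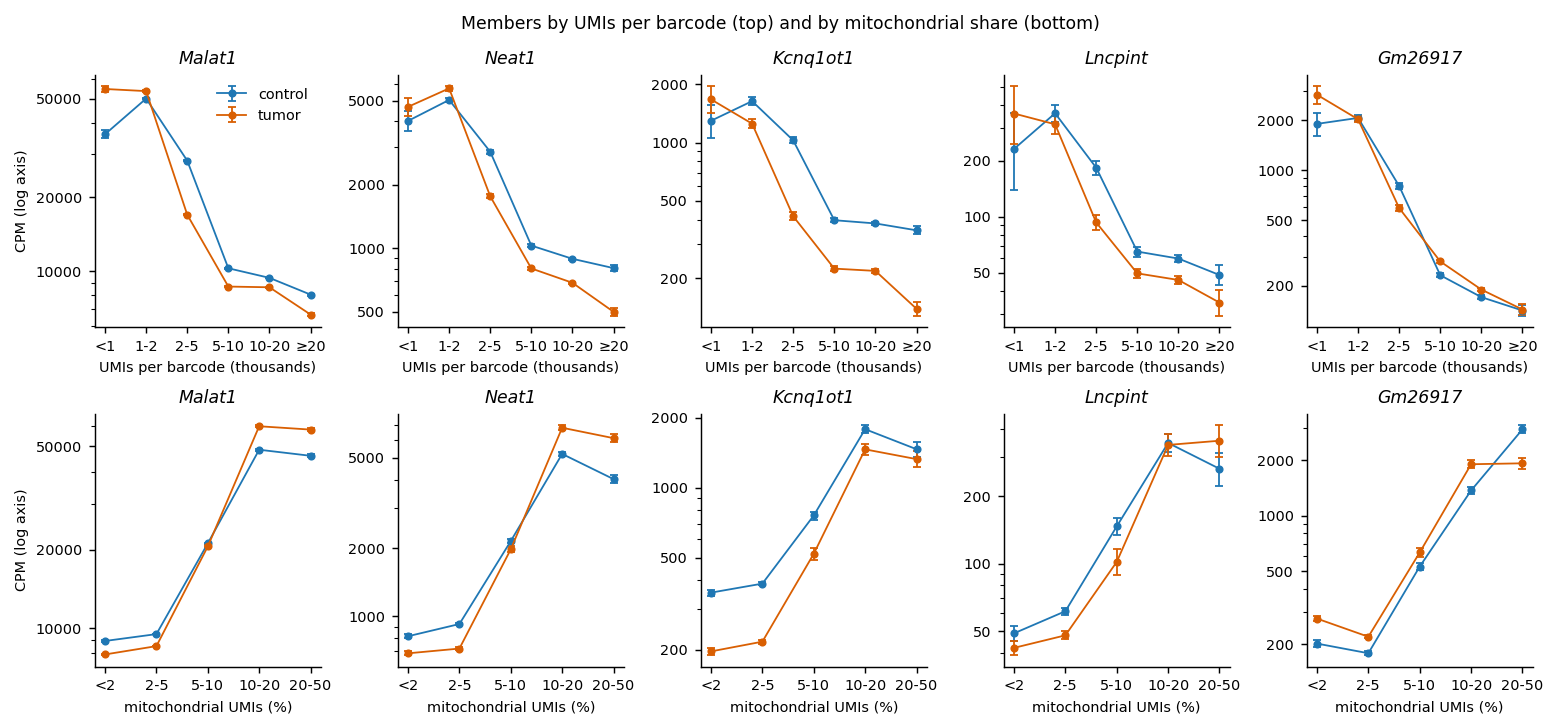
Level of each RNA in CPM on log axes, summed over barcodes binned by UMIs per barcode (top) or by percent of mitochondrial UMIs (bottom), in the control (blue) and tumor (orange) library, with exact 95% Poisson bars. All 5 RNAs are highest in barcodes under 2000 UMIs and in barcodes with at least 10% mitochondrial UMIs, and Kcnq1ot1 is lower in tumor in every bin except the shallowest.

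Barcodes under 2000 UMIs were set against barcodes with at least 10000 (832 and 3313 in control, 797 and 2618 in tumor). *Malat1* was at 49179 against 9244 CPM in control and at 53863 against 8364 CPM in tumor, 5.32-fold and 6.44-fold. *Neat1* was at 4970 against 880 CPM in control and 5632 against 661 CPM in tumor, 5.65-fold and 8.52-fold. *Kcnq1ot1* was at 1613 against 380 CPM in control and 1287 against 208 CPM in tumor, 4.24-fold and 6.19-fold. The fold was larger in tumor for these 3 RNAs at these limits, but it was smaller for *Malat1* and *Kcnq1ot1* and nearly equal for *Neat1* when the 20% of barcodes with fewest UMIs were set against the 20% with most, where the log2 ratio in control and tumor was 2.22 and 1.91 for *Malat1*, 2.36 and 2.37 for *Neat1* and 1.95 and 1.90 for *Kcnq1ot1*. *Lncpint* was 6.02-fold and 7.17-fold higher in shallow barcodes, at 352 against 58.4 CPM and 318 against 44.4 CPM. *Gm26917* had the steepest relation to depth, at 2061 against 168 CPM in control (12.3-fold) and 2101 against 184 CPM in tumor (11.4-fold). All 5 passed 1.5-fold upward in both libraries, while 25.2% of 7382 genes measured did. This relation is what the genes were chosen for, so it is given as a description.

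The relation was weaker but present below 10% mitochondrial UMIs, and under 2% it did not hold at every depth. Among barcodes under 10% mitochondrial UMIs, *Malat1* was 3.58-fold and 4.41-fold higher in shallow than in deep barcodes of control and tumor, *Kcnq1ot1* 2.73-fold and 4.42-fold, and *Gm26917* 5.95-fold and 8.59-fold. There too all 5 passed 1.5-fold in both libraries, against 22.5% of 4415 genes. Only 236 control and 260 tumor barcodes were both shallow and under 10% mitochondrial. Under 2%, barcodes of 1000 to 2000 UMIs held *Malat1* at 23182 CPM in control and 14539 in tumor, against 42266 and 51141 at 5 to 10%. *Kcnq1ot1* in those tumor barcodes under 2% was at 163 CPM, below 214 CPM at 10000 to 20000 UMIs. Control barcodes of 2000 to 5000 UMIs under 2% lay below those of 10000 to 20000 for *Malat1* (5852 and 9074 CPM), *Neat1*, *Kcnq1ot1* and *Lncpint*. *Gm26917* was higher there, at 413 and 169 CPM. In tumor under 2%, the same depth bins held *Malat1* at 6969 and 8576 CPM, *Kcnq1ot1* at 163 and 214 CPM and *Lncpint* at 39.5 and 47.0 CPM. *Neat1* was at 707 CPM in each of these tumor bins, and *Gm26917* was again higher in the shallower, at 439 and 232 CPM.

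In counts per barcode rather than in shares, *Malat1* differed less between shallow and deep barcodes than a cytosolic mRNA did. Control barcodes held on average 32.0 *Malat1* UMIs under 1000 UMIs, 75.2 from 1000 to 2000, 81.9 from 5000 to 10000, 125 from 10000 to 20000 and 187 above that, and the bin of 2000 to 5000 UMIs lay above both of its neighbours. Mean UMIs of *Actb*, the cytosolic actin mRNA, were 5.64, 5.80, 23.0, 87.9, 142 and 252 over all 6 bins. From the bin of 1000 to 2000 UMIs to that of 5000 to 10000, *Malat1* thus differed little while *Actb* went from 5.80 to 87.9. *Gm26917* had no steady relation to depth in control, with 1.70, 3.11, 2.60, 1.85, 2.27 and 3.31 UMIs per barcode. The tumor library held 48.8, 79.1, 60.8, 64.9, 113 and 159 *Malat1* UMIs per barcode, so its bin of 2000 to 5000 UMIs lay below both neighbours, unlike in control.

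**Figure D2:**
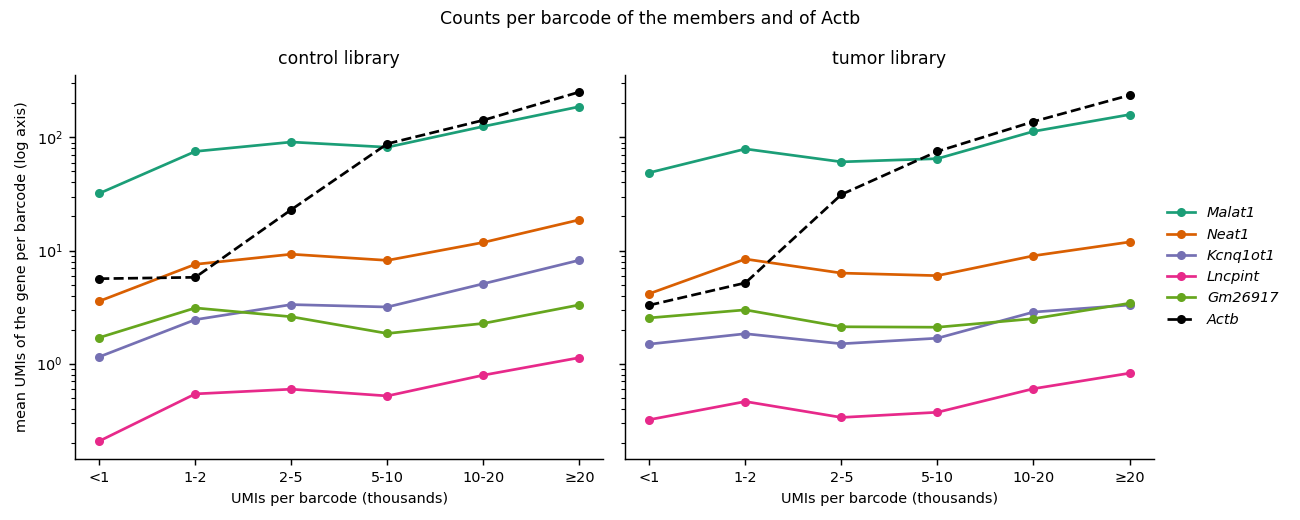
Mean UMIs of each RNA per barcode (log axis) by UMIs per barcode, in the control (left) and tumor (right) library, with Actb as a dashed black line. Between 1000 and 10000 UMIs per barcode the 5 lncRNA lines change far less than Actb, which climbs from 5.80 to 87.9 in control.

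As point values, the proportions to *Malat1* kept the libraries apart over the depth bins for *Kcnq1ot1* and not for *Gm26917*. Per 100 *Malat1* UMIs, *Kcnq1ot1* ranged from 3.26 to 4.40 over the 6 depth bins of control and from 2.08 to 3.05 over those of tumor, with no overlap. *Gm26917* went from 5.30 in the shallowest to 1.77 in the deepest control bin and from 5.22 to 2.16 in tumor, so its ratio to *Malat1* itself changed with depth. In CPM, *Kcnq1ot1* was lower in tumor in 5 of the 6 depth bins, by a log2 ratio of −0.39 from 1000 to 2000 UMIs to −1.35 above 20000, and was higher by 0.37 under 1000 UMIs, where 92 control and 103 tumor barcodes lay. *Malat1* and *Neat1* were also higher in tumor below 2000 UMIs and lower above.

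The mitochondrial share gave a like picture. *Malat1* in control was at 8933 CPM under 2% mitochondrial UMIs, 9493 from 2 to 5%, 21197 from 5 to 10%, 48579 from 10 to 20% and 46037 from 20 to 50%, and in tumor at 7928, 8535, 20628, 59801 and 58059 CPM. *Neat1* peaked in the same bin, at 5203 CPM in control and 6788 CPM in tumor. *Gm26917* went on upward in control, from 202, 179 and 529 CPM to 1369 and 2940 CPM, and levelled off in tumor, at 1901 and 1923 CPM in the highest bins. Mean *Malat1* UMIs per barcode were 88.4, 109, 107, 108 and 73.0 in control and 65.1, 83.0, 94.4, 112 and 94.0 in tumor, so the counts moved far less than the shares did.

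Barcodes with at least 10% mitochondrial UMIs were compared with those under 5% (977 and 5525 in control, 764 and 7171 in tumor). The fold was 5.11 and 7.07 for *Malat1*, 5.42 and 9.22 for *Neat1*, 4.49 and 6.71 for *Kcnq1ot1*, 5.52 and 7.43 for *Lncpint* and 9.69 and 8.14 for *Gm26917*, in control and tumor. All 5 passed 1.5-fold upward in both libraries, against 23.5% of 7978 genes, which is again the relation they were chosen for. Within barcodes of 2000 to 10000 UMIs they still did so, against 19.3% of 6096 genes, with *Malat1* 4.23-fold and 6.73-fold higher. Without mitochondrial UMIs in the denominator the log2 ratios were larger, 2.58 in place of 2.35 for *Malat1* in control and 3.07 in place of 2.82 in tumor.

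Depth and mitochondrial share were tied to each other, so *Malat1* was also laid out over both. Among control barcodes of 2000 to 5000 UMIs it was at 5852, 14842, 30437, 41927 and 45171 CPM over the mitochondrial bins, and among those of 10000 to 20000 UMIs at 9074, 9385 and 11624 CPM over the 3 bins with at least 20 barcodes. In tumor the barcodes of 2000 to 5000 UMIs held 6969, 8985, 25477, 55320 and 68919 CPM. Control barcodes of 1000 to 2000 UMIs held 23182, 28708, 42266, 62615 and 46541 CPM. The range over the mitochondrial bins was thus widest at 2000 to 5000 UMIs, and the barcodes of 10000 to 20000 UMIs could be followed only up to 10% mitochondrial UMIs. Among barcodes with at least 5000 UMIs and under 5% mitochondrial UMIs, Spearman's rho of the *Malat1* share with UMIs per barcode was −0.02 over 5097 control and 0.05 over 6178 tumor barcodes, against −0.41 and −0.24 over all barcodes. With the mitochondrial share it was 0.09 and 0.07, against 0.51 and 0.39. Over all barcodes the share of *Kcnq1ot1* had a rho of −0.17 and −0.07 with UMIs per barcode and that of *Lncpint* −0.00 and 0.03, where many barcodes held no UMI of the gene. These are descriptions over barcodes of 1 library each, which share the total count as denominator.

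**Figure D3:**
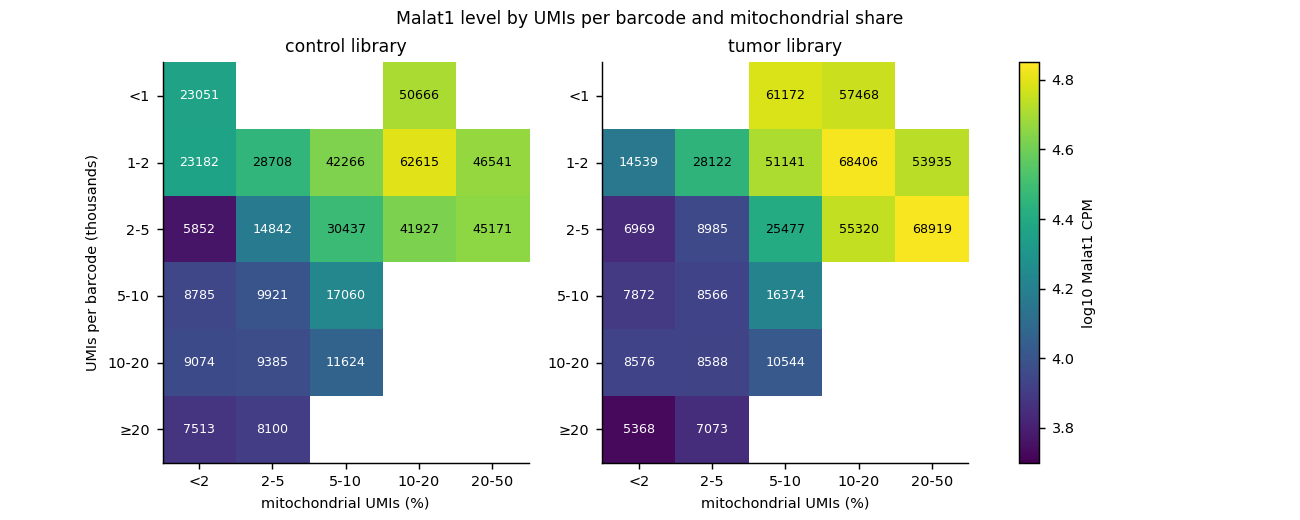
Malat1 level in CPM (number in each tile, colour on a log10 scale) by UMIs per barcode and percent of mitochondrial UMIs, in the control (left) and tumor (right) library. Tiles with fewer than 20 barcodes are blank, and the highest tile is 62615 CPM in control (1000 to 2000 UMIs, 10 to 20% mitochondrial) and 68919 CPM in tumor (2000 to 5000 UMIs, 20 to 50%).

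Other nuclear lncRNAs were high in the same barcodes. Between shallow and deep barcodes, 8 of 9 measured were at least 1.5-fold higher in both libraries (*Xist*, *Tsix*, *Ftx*, *Firre*, *Tug1*, *Pvt1*, *Dleu2* and *Snhg11*), with medians of 1.93 and 2.34, against 0.06 and 0.08 over all genes. Of 6 lncRNAs that host small nucleolar RNAs or act in the cytoplasm, none was higher and 1, *Zfas1*, was lower, with medians of −0.38 and −0.17. The 8 abundant cytosolic mRNAs, *Actb*, *Gapdh*, *Eef1a1*, *Tmsb4x*, *Fth1*, *Ftl1*, *B2m* and *Tpt1*, were all lower in shallow barcodes, with medians of −1.40 and −1.68. Among mRNAs of speckle proteins 8 of 16 were higher and none lower, *Son* and *Srrm2* among them, and among those of paraspeckle proteins 7 of 16 were higher and *Nono* was lower. By annotation class, 83.6% of 165 lncRNAs and 23.7% of 7200 protein-coding genes were higher in shallow barcodes, and 6.67% and 21.3% were lower. In barcodes of high mitochondrial share, 84.3% of 229 lncRNAs and 21.6% of 7732 protein-coding genes were higher, and 5.68% and 23.5% were lower. The 5 lncRNAs and the ribosomal neighbours differed in size, since *Gm42418* was 2.09-fold and 2.24-fold higher in shallow barcodes and *Gm26917* 12.3-fold and 11.4-fold.

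The minimum of 500 genes cut through this range. Just outside it, at 400 to 499 genes, *Malat1* was at 31511 CPM in control and 41836 CPM in tumor, and just inside, at 500 to 599 genes, at 36971 and 50686 CPM. *Kcnq1ot1* was at 565 and 578 CPM outside and 934 and 1110 CPM inside, *Neat1* at 2036 and 3606 CPM outside and 3210 and 4954 CPM inside, *Lncpint* at 193 and 229 CPM outside and 190 and 301 CPM inside, and *Gm26917* at 2946 and 3116 CPM outside and 3400 and 3665 CPM inside.

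The barcodes were clustered with the 5 RNAs, all listed genes and the mitochondrial genes kept out of the variable genes, which gave 10 clusters of at least 50 barcodes, lettered A to J. Every one of the 5 RNAs had its highest level in cluster G in both libraries. Cluster G held 948 control and 764 tumor barcodes (13.2% and 9.06% of the libraries) with medians of 1777 and 1546 UMIs and of 15.2% and 16.1% mitochondrial UMIs, the lowest depth and the highest mitochondrial share of the 10. Its leading genes by fold were *mt-Nd6*, *Gm26917*, *Neat1*, *mt-Nd4l* and *Lncpint*, and it was not given a cell type name.

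In cluster G, *Malat1* was at 53672 CPM (53342 to 54003) in control and 65133 CPM (64701 to 65567) in tumor, 5.44-fold and 7.50-fold over all other barcodes. *Neat1* was at 5765 and 7129 CPM, 6.09-fold and 9.56-fold, and *Kcnq1ot1* at 1895 and 1585 CPM, 4.80-fold and 7.23-fold. *Lncpint* was at 396 and 390 CPM, 6.40-fold and 8.22-fold, and *Gm26917* at 1837 and 2001 CPM, 9.12-fold and 8.12-fold. All 5 were past 2-fold in both libraries, against 14.9% of 7942 genes, and nothing is read from this count, since the genes were chosen for such states and G was the shallow cluster of high mitochondrial share. The count per barcode was not raised to the same degree, since cluster G held 107 and 114 *Malat1* UMIs per barcode and cluster A 108 and 72.1. In cluster G, 8 of 9 other nuclear lncRNAs were at least 2-fold higher and the 8 abundant cytosolic mRNAs at least 2-fold lower, against 75.6% of 234 lncRNAs higher and 13.6% of 7692 protein-coding genes lower, *Actb* being at 3891 and 2652 CPM, its lowest of all 10 clusters.

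Markers were also summed for other cells that a sort could hold. All 13 AM markers were detected, at a summed 11042 CPM in control and 6919 CPM in tumor, against 17124 CPM in the remaining barcodes of both libraries. The summed level was 170 CPM for 8 epithelial markers (7 detected), against 60.6 CPM elsewhere, and those of dendritic cells (25.7 against 9.20 CPM), endothelial cells (42.4 against 36.5 CPM) and erythroid cells (4.96 against 0.867 CPM) were also higher in G. Markers of monocytes (52.7 against 142 CPM), neutrophils (48.3 against 118 CPM), fibroblasts (80.5 against 127 CPM), B cells (1.55 against 4.58 CPM) and T or NK cells (0.310 against 2.21 CPM) were lower. The part of RNA of other cells in the lncRNA levels was not tested.

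**Figure D4:**
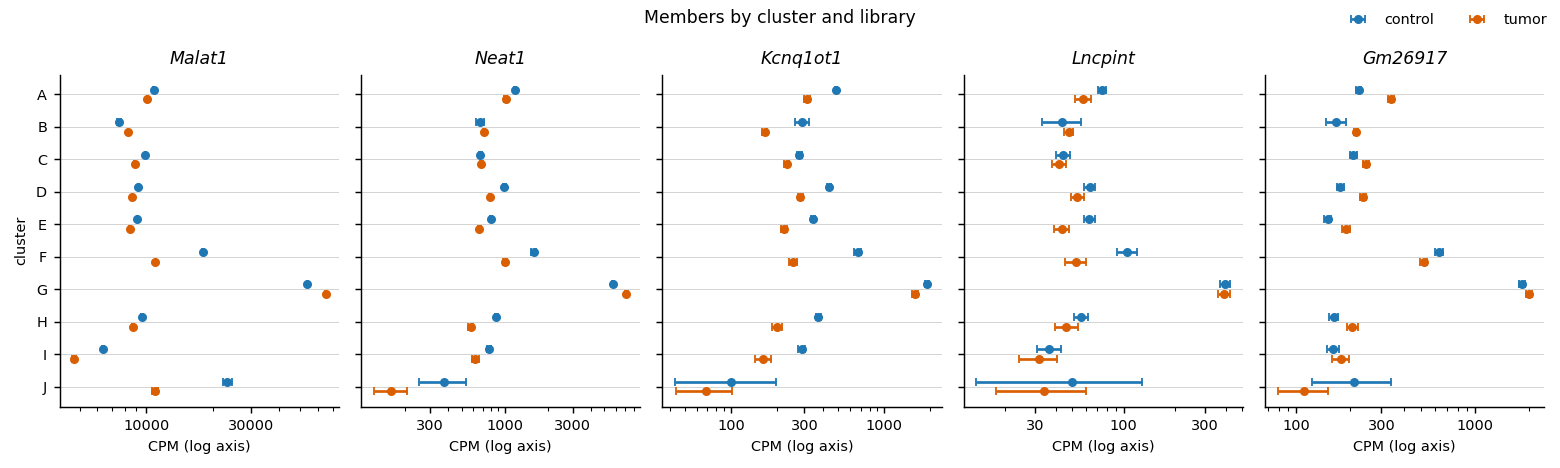
Level of each RNA in CPM (log axes) in clusters A to J of the control (blue) and tumor (orange) library, with exact 95% Poisson bars. All 5 RNAs are highest in cluster G, at 53672 and 65133 CPM for Malat1, and cluster J rests on 23 control and 29 tumor barcodes.

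Cluster F came next for *Gm26917* in both libraries, and for *Malat1* among the clusters other than J, the small cluster J being above F in control and not separated from it in tumor. It held 709 control barcodes with a median of 2550 UMIs and 7.18% mitochondrial UMIs, and 1048 tumor barcodes with 3420 UMIs and 2.91%. *Gm26917* was its leading gene by fold, at 629 and 518 CPM, 2.67-fold and 1.95-fold over the rest, and *Malat1* was at 18128 CPM in control and 11023 CPM in tumor. None of the 5 passed 2-fold in both libraries there, where 0.0569% of 8794 genes did. Within this cluster the control barcodes were the shallower and had the higher mitochondrial share, and for all 5 RNAs the control level was the higher.

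The deep clusters differed less from one another than from cluster G. In the 7 clusters A to E, H and I, whose median depth was at least 6745 UMIs in each library, *Malat1* ran from 6368 CPM in cluster I to 10835 CPM in cluster A of control and from 4728 to 10133 CPM in the same clusters of tumor. Cluster A, led by the lipid genes *Acaa1b* and *Fabp1*, had the highest *Malat1*, *Neat1* (1183 and 1019 CPM) and *Kcnq1ot1* (483 and 311 CPM) of these clusters in both libraries. Its *Lncpint* level was 74.8 CPM (70.8 to 78.9) in control and 57.6 CPM (51.8 to 64.0) in tumor, the latter not separated from cluster D (48.9 to 58.2). Cluster I, led by genes of the cell cycle such as *Top2a*, *Birc5* and *Ube2c*, had the lowest *Malat1*, at 0.557-fold and 0.477-fold of the rest. *Lncpint* there was at 36.5 CPM (31.0 to 42.6) in control and 31.8 CPM (24.3 to 40.8) in tumor, not separated from cluster C (40.1 to 48.7 and 37.7 to 45.9). Clusters D, E and H of control lay within 9107 to 9593 CPM for *Malat1*. Cluster B, led by *S100a4* and *Apoe* and made up of 141 control and 2311 tumor barcodes, had *Kcnq1ot1* at 290 and 166 CPM, and cluster C, led by *Hspa1b* and *Jun*, at 278 and 230 CPM. For *Kcnq1ot1* in control, B, C and I were not separated beyond their intervals (262 to 320, 267 to 289 and 272 to 305 CPM).

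Cluster J, with 23 control and 29 tumor barcodes, was led by genes of other cells, *Dcn*, *Col3a1*, *S100a9* and *Igkc* among them, and its summed AM markers were at 994 CPM. There *Neat1* was at 374 CPM (252 to 533) in control and 160 CPM (121 to 208) in tumor and *Kcnq1ot1* at 99.6 and 68.5 CPM, the lowest of all clusters, whereas *Malat1* was at 23353 and 11019 CPM.

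Within clusters, *Kcnq1ot1* was lower in tumor in all 10. The log2 ratio ran from −0.26 (−0.34 to −0.18) in cluster G to −1.40 (−1.52 to −1.28) in cluster F, and only in cluster J did the interval, −1.74 to 0.82, include 0. *Gm26917* was higher in tumor in 8 clusters, with log2 ratios from 0.12 in cluster G to 0.59 in cluster A, although the interval included 0 in cluster I, and it was lower in F (−0.28) and J (−0.93). *Malat1* was lower in tumor in 8 clusters and higher in B (0.13) and G (0.28). *Neat1* was lower in 7 clusters and higher in G (0.31), with intervals that reached 0 in B and C. *Lncpint* was lower beyond its interval in A, D, E, F and H. Thus, of the 5 RNAs, *Kcnq1ot1* had the same direction in every cluster.

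**Figure D5:**
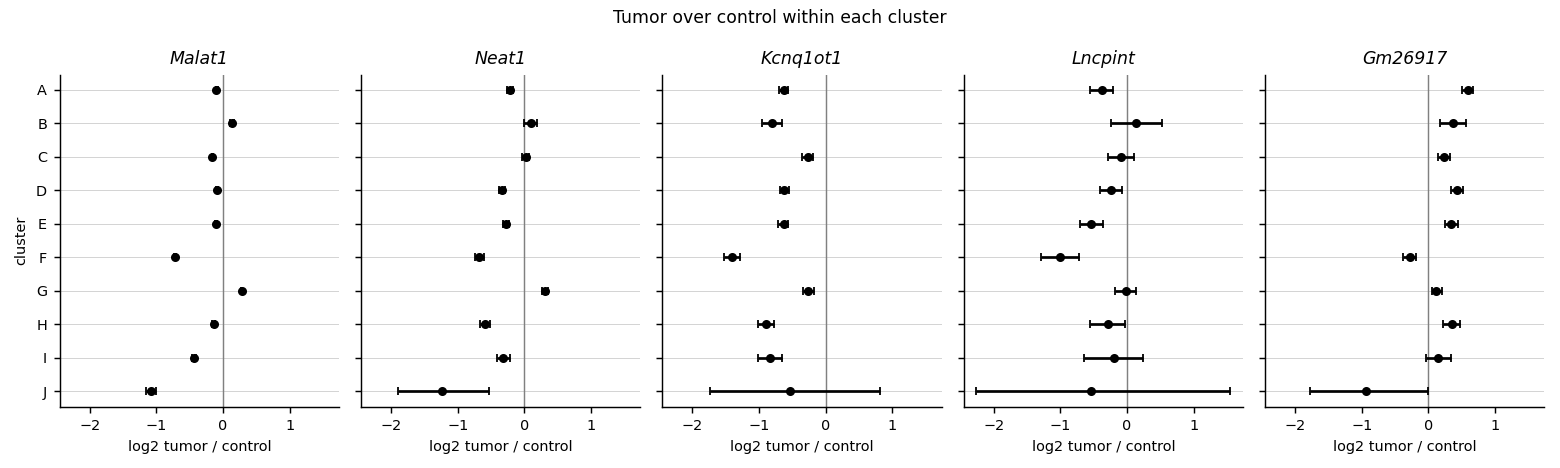
Log2 ratio of tumor over control CPM of each RNA within clusters A to J, with exact conditional 95% bars and a grey line at 0. Kcnq1ot1 lies left of 0 in all 10 clusters, from −0.26 in G to −1.40 in F, and Gm26917 lies right of 0 in all but F and J.

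Patterns over clusters were compared by Pearson's r of log2(CPM + 1) over 18 groups of at least 50 barcodes of 1 cluster and library, among 7490 genes. The groups share depth and mitochondrial share as well as the library, so r is a description, and it is also given over the 16 groups without cluster G. The gene most like *Malat1* was *Lncpint* (0.980, and 0.88 without G), and the next were *Mapk8ip3*, *Prpf39*, *Zcchc7* and *Tsc22d2*. *Neat1* was most like *Dmxl2* (0.986 and 0.93), followed by *Setd5*, *Zc3h7a*, *Prpf39* and *Map3k2*. *Kcnq1ot1* was most like *Creb5* (0.988 and 0.96), followed by *Jmjd1c*, *Cln3*, *Nufip2* and *Ankrd17*. *Lncpint* was most like *Abl2* (0.990 and 0.95), with *Neat1* and *Malat1* among its next 4 genes. *Gm26917* was most like *mt-Nd6* (0.980 and 0.92), the mitochondrial gene that led cluster G, followed by *Stard9*, *Pitpnm1*, *Man2a2* and *Ccnl2*.

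Among the 5, *Lncpint* and *Neat1* were the closest pair (0.982, and 0.88 without G) and *Kcnq1ot1* and *Gm26917* the least alike (0.823, and 0.32 without G). Over single barcodes thinned to 2000 UMIs, Spearman's rho was 0.45 in control and 0.36 in tumor for *Malat1* with *Neat1*, the highest of the 10 pairs, and 0.14 and 0.09 for *Kcnq1ot1* with *Gm26917*. The barcodes of a pair come from 1 library each, and most hold few UMIs of the sparser genes.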

How the data were processed

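The authors made the libraries with a 10x Genomics 3′ kit and deposited raw UMI counts per gene and barcode, not normalized, from Cell Ranger at default settings. The submitters' processing notes name Cell Ranger 4.0.0, bcl2fastq 2.20 and mm10, whereas the paper's methods name a later Cell Ranger version. The annotation version is not given in the sources used here. The methods also mention hashtag reads, which were not used here, so a table stands for a single library.

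Of 32285 gene identifiers, 32158 were matched to a symbol. From the deposited counts, CPM were computed from UMIs summed over barcodes with at least 500 genes. Genes with at least 10 UMIs in each group compared were counted as past 1.5-fold (2-fold for clusters). With 1 library per group, no model of the counts and no test was run. Depth bins had edges of 1000, 2000, 5000, 10000 and 20000 UMIs and mitochondrial bins edges of 2, 5, 10, 20 and 50%. Clusters were made by the Leiden method (resolution 1, 2000 variable genes, 100 components, 15 neighbours) once the libraries had been aligned through mutual nearest neighbours. The 49 barcodes in 2 smaller clusters were not shown as clusters of their own. They stayed among the other barcodes against which each cluster was set, and formed a further stratum in the averages over clusters A to J. Scrublet's automatic threshold called 0 doublets in either library and was taken not to have worked. Doublets were kept, and an alternative removed 325 control and 503 tumor barcodes of the highest scores. Gene positions, transcript ends and A runs were read from GENCODE vM21 and promoters from RefSeq GRCm38.p6. Shared stretches were found with BLAST 2.17.0.

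The 5 lncRNAs and all gene lists were chosen with earlier results of these data known. Genes named beyond them are, per list, up to 4 genes with the largest ratio of tumor over control, per lncRNA the 5 genes of highest r over clusters, the leading genes of clusters, and control genes. Members of lists that passed the fold between shallow and deep barcodes are named in addition. So are the other measured genes of the *Kcnq1* imprinted domain, and *Junb*, which the paper names. The scripts were tested on simulated data. Python 3.11.15 was used with numpy 2.4.6, pandas 2.3.3, scipy 1.17.1, scanpy 1.11.5, leidenalg 0.10.2, scikit-learn 1.9.0 and matplotlib 3.10.9. The alternatives changed the denominator, scaling, gene minimum, mitochondrial limit, doublets, pooling, thinning, strata and clustering. The bulk RNA-Seq and culture experiments of the study were not analysed here.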

Additional observations from a re-analysis of the deposited data

Results flagged for a closer look

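Barcodes under 500 genes were outside the main comparisons, and entered only the levels just outside the gene minimum and the alternative without that minimum. There were 1323 in control with a median of 43.2% mitochondrial UMIs and 745 in tumor with 34.2%. In them *Malat1* was at 23133 CPM in control and 31856 CPM in tumor, above the level of the kept barcodes of the same library. *Gm26917* was there at 2626 CPM in control and 2864 CPM in tumor, 10.6-fold and 10.2-fold over the kept barcodes. *Neat1* was at 1126 and 2212 CPM, 1.04-fold and 2.55-fold. *Kcnq1ot1* was at 343 CPM in control, 0.784-fold of the kept barcodes and thus lower, and at 415 CPM in tumor, 1.69-fold.

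The direction of tumor over control differed between clusters, and these differences between clusters were not tested. *Malat1* had a log2 ratio of 0.28 in cluster G and −0.72 in cluster F, and *Neat1* had 0.31 in cluster G and −0.68 in cluster F. *Gm26917* had 0.59 in cluster A and −0.28 in cluster F. In cluster F the control barcodes had a median of 2550 UMIs and 7.18% mitochondrial UMIs, the tumor barcodes 3420 UMIs and 2.91%. The part of this imbalance in the ratios was not tested.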

How the results depend on the processing

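All 38 alternatives for how many of the 5 lncRNAs passed a fold, or had a share of barcodes with a UMI higher in control (a comparison within counting error only, not set against other genes), gave the same number, and 0 called values changed sign. The higher share of *Gm26917* in tumor was lost with barcodes thinned to 1000 UMIs. The log2 ratio of tumor over control of *Kcnq1ot1* ran from −0.98 with every barcode thinned to 2000 UMIs to −0.63 averaged over clusters A to J, that of *Malat1* from −0.30 to −0.08, of *Neat1* from −0.39 to −0.15 and of *Lncpint* from −0.48 to −0.25 over the same settings. *Gm26917* ran from −0.05, averaging each barcode's own CPM, to 0.33 in barcodes of at least 5000 UMIs under 5% mitochondrial. The alternatives chosen after seeing the data were those on clusters F, G and J, on averages over clusters, on barcodes of at least 5000 UMIs under 5% mitochondrial and on shared barcode sequences. The median ratio of all genes was −0.07 with total UMIs and 0.01 with TMM scaling. All 5 lncRNAs peaked in 1 and the same cluster under every clustering tried, and with at most 10% mitochondrial UMIs that cluster held 866 barcodes at medians of 2828 and 2626 UMIs, of which 39.7% were in cluster G (20.1% of G), with *Malat1* at least 3.75-fold over the rest in each library. At resolution 0.5 it held 3357 barcodes, 51.0% of them from G, and *Malat1* was at least 3.09-fold over the rest. No paired analysis was possible because each group had 1 library. With 1 library per condition, replicate error is unknown, and low counts limit *Lncpint*, the bins under 1000 UMIs and cluster J.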
